A study of Mus musculus with 20 samples.

Results

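Integrins of macrophages were followed through 20 RNA-seq libraries of bone marrow-derived macrophages (BMDM) from mice as 10 genes, 6 for alpha chains (Itgam, Itgax, Itgal, Itga4, Itga6 and Itgav) and 4 for beta chains (Itgb1, Itgb2, Itgb3 and Itgb5). The genes were taken by symbol, with Ensembl identifiers mapped through GENCODE M21, and all 10 were among the 14456 genes of the normalized table. The rule uses no measured value, but the members and the lists of other genes were chosen with earlier results of these data known. Across 5 comparisons and 1 test between comparisons, 4 of the 10 genes (Itgam, Itgal, Itgav and Itgb3) passed the threshold at least once and 6 did not. The share of all genes passing at least once was not computed, so this count has no background beside it. In single tests, 0.0139% to 13.3% of all genes passed.

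An integrin is a receptor made of 1 alpha and 1 beta chain that links matrix proteins or ligands on other cells to the cytoskeleton. The beta chain encoded by Itgb2 (CD18) pairs with Itgal (CD11a) to form LFA-1, with Itgam (CD11b) to form Mac-1, also called complement receptor 3, and with Itgax (CD11c) to form complement receptor 4. Itgb1 pairs with Itga4, as VLA-4, and with Itga6, as a laminin receptor, whereas Itgav pairs with Itgb1, Itgb3 or Itgb5 to bind vitronectin, osteopontin and other proteins with an RGD motif. In macrophages, the beta-2 integrins serve adhesion to endothelium, migration and uptake of complement-coated particles, and the alpha-v integrins serve matrix binding and the uptake of dying cells.

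Bone marrow of male C57BL/6J mice, with no transgene or deletion in the labels, was grown for 6 days with M-CSF. Every group therefore consisted of cultured macrophages and not of tissue cells. The culture methods of the study give the age of the mice as 8 weeks, and another section gives a range that starts at 8 weeks. In the first experiment the cells stood for 24 h in normal glucose (NG, 5.5 mM glucose with 19.5 mM mannitol as osmotic balance) or in high glucose (HG, 25 mM glucose). In the second experiment BMDM received, for 24 h, PBS, exosomes released by BMDM in normal glucose (BMDM-NG-exo) or exosomes released by BMDM in high glucose (BMDM-HG-exo), at 2000000000 particles/ml. Each of the 5 groups had 4 libraries, and the exosome libraries carried 4 dates in their labels, each date once in every group.

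The libraries held 34016445 to 56310712 reads in listed genes (median 43311931), and the deposited values are normalized counts, read counts divided by 1 size factor per library. All 10 macrophage markers looked for were listed, Csf1r and Lyz2 among them, whereas markers of dendritic cells (8), T and NK cells (6), mast cells (5) and erythroid cells (6) were not in the table, and 5 of 10 neutrophil, 1 of 5 B cell and 4 of 7 stromal markers were, none of them called in any comparison. The table was already filtered, with a median of at least 11 reads for every gene in it, so a gene missing from it was low and not necessarily absent. The labels do not say whether the libraries of either experiment came from separate animals. For the exosome experiment, the study states that the exosomes of each sample were prepared separately. The p-values therefore measure the spread between these samples, which may be technical apart from the exosome preparations.

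The 3 alpha chains that pair with Itgb2 lie close together on chromosome 7 of GRCm38, Itgal (ENSMUSG00000030830) at chr7:127296260-127335138, Itgam (ENSMUSG00000030786) at chr7:128062640-128118491 and Itgax (ENSMUSG00000030789) at chr7:128129547-128150657. Of the other genes that passed a test, Itgav (ENSMUSG00000027087) at chr2:83724397-83806916 and Itgb3 (ENSMUSG00000020689) at chr11:104608000-104670476 lie apart, and all are protein-coding and on the + strand. Start sites of 6 of the 10 genes had an entry in the RefSeq promoter table (GRCm38.p6), and 4, Itgal, Itga6, Itgb2 and Itgb3, did not. Shown are the 250 bases before the start on the + strand of Itgam (chr7:128062390-128062639) and Itgav (chr2:83724147-83724396), which changed in these data, and of Itgax (chr7:128129300-128129549) and Itgb1 (chr8:128685404-128685653), 1 low and 1 abundant chain that passed in no comparison. Capitals mark GAGGAA, a core sequence of the ETS family to which the myeloid factor PU.1 belongs, and GGGCGG, the GC box, each on either strand; no match of 1 overlapped the other.
Itgam: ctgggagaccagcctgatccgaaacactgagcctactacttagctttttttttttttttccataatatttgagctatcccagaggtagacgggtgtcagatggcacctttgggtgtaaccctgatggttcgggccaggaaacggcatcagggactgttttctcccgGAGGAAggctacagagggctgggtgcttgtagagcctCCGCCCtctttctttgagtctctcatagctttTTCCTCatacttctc
Itgax: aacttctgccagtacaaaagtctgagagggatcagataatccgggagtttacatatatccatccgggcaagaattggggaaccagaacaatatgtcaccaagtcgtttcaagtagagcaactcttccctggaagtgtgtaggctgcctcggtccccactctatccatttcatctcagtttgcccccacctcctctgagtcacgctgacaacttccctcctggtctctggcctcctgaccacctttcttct
Itgav: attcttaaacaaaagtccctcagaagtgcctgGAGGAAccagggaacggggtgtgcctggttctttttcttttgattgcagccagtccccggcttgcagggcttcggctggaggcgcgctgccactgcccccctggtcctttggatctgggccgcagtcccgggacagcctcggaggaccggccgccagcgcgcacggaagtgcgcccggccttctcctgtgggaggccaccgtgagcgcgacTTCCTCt
Itgb1: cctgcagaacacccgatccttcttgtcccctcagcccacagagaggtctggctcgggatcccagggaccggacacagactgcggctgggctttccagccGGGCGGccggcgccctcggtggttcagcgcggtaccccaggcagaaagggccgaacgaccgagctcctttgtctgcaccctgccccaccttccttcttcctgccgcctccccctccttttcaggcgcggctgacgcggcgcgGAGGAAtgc

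The windows of Itgav, Itgb1 and Itgb5 held more CpG than those of Itgam, Itgax and Itga4. CpG dinucleotides numbered 18, 21 and 18 in the first set, against 6, 5 and 6 in the second. The median of all 32851 windows was 6. GAGGAA or its reverse complement occurred 2 times before Itgam, 2 times before Itgav and once before Itgb1, and in 23.3% of all windows. The GC box occurred 3 times before Itgb5, once each before Itgam, Itga4 and Itgb1, and in 32.7% of all windows. TATAAA was in none of the 6 windows and in 12.4% of all. These are matches of letters only, and no binding was measured.

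The beta chains Itgb2, Itgb5 and Itgb1 had the highest levels of the members when set per kilobase of the whole exon length, and the beta chain Itgb3 was among the lowest. Itgb2 led with a median normalized count of 9979 (8887 to 10564) per kb over the 20 libraries, above 99.3% of listed genes. Itgb5 at 5159.6 (4310.4 to 5769) and Itgb1 at 4606 (4435 to 4821) per kb followed, and their ranges overlapped. Next came the alpha chains Itga6 at 1729 (1533 to 1919), Itgam at 1585 (1316 to 1931), Itgav at 1099 (940.1 to 1221) and Itga4 at 1047 (909 to 1161) per kb, of which Itga6 and Itgam overlapped each other, as did Itgav and Itga4. Itgal lay lower at 571 (449 to 746) per kb. Itgb3 at 41.3 (20.8 to 71.6) and Itgax at 24 (14.2 to 32.7) per kb were the lowest, with ranges that overlapped, and rested on 97 to 457 and 67 to 169 reads in a library.

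The place of Itgam in that order depends on how shared exons were counted. Of its 5024 exon bases, 3450 also belong to Gm49368, a gene model on the same strand, and Gm49368 held only 0 to 21 reads in a library, so reads on the shared bases were not counted for both genes. If such reads went to neither, the 1574 bases of its own carried all Itgam reads and the median would be 5060.3 normalized counts per kb, close to Itgb1 and Itgb5. Differences of Itgam between groups are not changed by the length chosen. No other member shared exon bases with a gene on its strand.

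**Figure D1:**
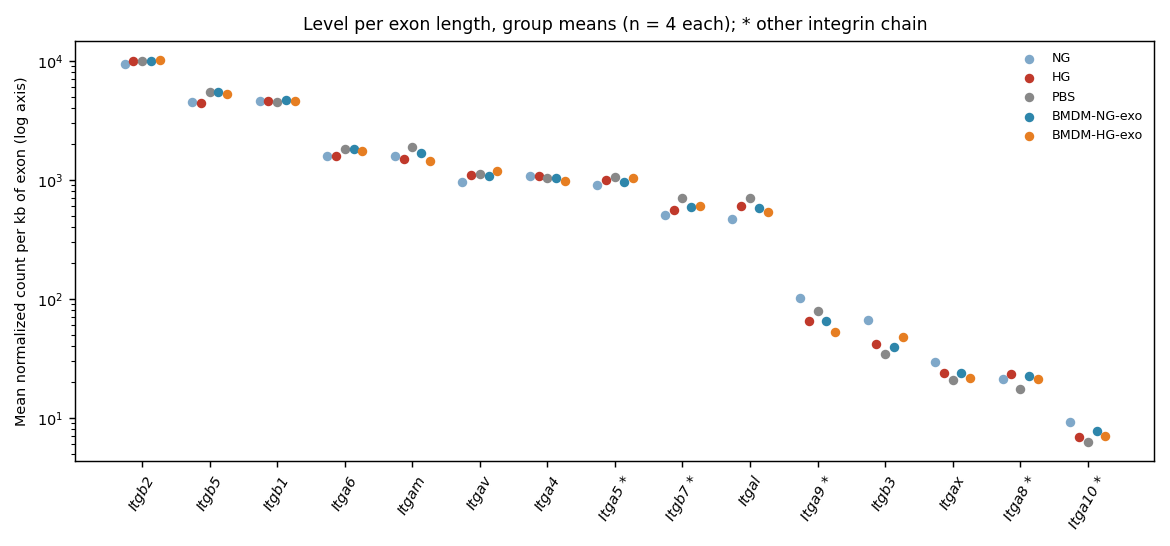
Group means (n = 4 each) of the normalized count per kb of exon (y axis, log scale) of the 10 integrin chains and of 5 other chains, marked with an asterisk, in order of their median over 20 libraries. Itgb2 stands highest, near 9979 per kb, and Itgb3 and Itgax are the lowest of the 10.

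Of the 16 other integrin chains, 8 were listed. Itga5, the fibronectin receptor chain, stood at 976 (801 to 1092) per kb and Itgb7, a partner of Itga4, at 584 (485 to 771) per kb, and their ranges overlapped those of Itga4 and Itgal, respectively. Itga9 had 69.2 (36.6 to 106) and Itga8 21.2 (13.6 to 26.8) per kb, and Itga10, Itga2b, Itga3 and Itga1 had medians of 7.38, 3.14, 2.68 and 1.92 per kb. Itga2, Itga7, Itga11, Itgad, Itgae, Itgb4, Itgb6 and Itgb8 were not in the table.

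In high glucose 2 alpha chains rose and 1 beta chain fell. The comparison asks how 24 h of high glucose changes the cells that then release exosomes. Called at an adjusted p under 0.05 were 3 of the 10 members, against 13.3% of the 14425 genes tested, 7.74% higher and 5.53% lower (limma, Benjamini-Hochberg adjustment). Libraries of HG and NG did not overlap for 4 members, against 16.3% of genes. The median log2 fold change of the 10 was -0.01, and that of all genes was also near 0, at -0.00306.

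Itgal, the alpha chain of LFA-1, had normalized counts of 3134, 3001, 3308 and 2946 in NG and 3775, 4279, 3731 and 4038 in HG. Every HG library lay above every NG library. The means were 3097 ± 161 and 3956 ± 255 (SD, n = 4 each), a rise of 27.6% (log2 fold change 0.35 ± 0.05 (SE), adjusted p = 1.97e-06, limma).

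Itgav, the vitronectin receptor alpha chain, had normalized counts of 10182, 10445, 10100.2 and 10405 in NG and 11649, 11290.2, 11612 and 12640.5 in HG. These groups did not overlap either, and the NG libraries lay close together. The means were 10283 ± 168 and 11798 ± 584 (SD, n = 4 each), a rise of 14.6% (log2 fold change 0.20 ± 0.04 (SE), adjusted p = 0.00021, limma). The call was lost when the spread was estimated without a trend on level (adjusted p = 0.0617).

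Itgb3, the beta chain of the vitronectin receptor with Itgav and of the platelet fibrinogen receptor with Itga2b, went the other way. Its normalized counts were 384, 384, 422 and 383 in NG and 257, 261, 233 and 229.6 in HG, so that no HG library reached the lowest NG library. The means of 393 ± 19.3 and 245 ± 15.9 (SD, n = 4 each) show that it fell by 37.6% (log2 fold change -0.68 ± 0.12 (SE), adjusted p = 5.36e-05, limma). Pf4, a platelet and macrophage chemokine and 1 of the 2 listed markers of 7 for platelets and megakaryocytes, fell beside it, by 1.11 on the log2 scale (adjusted p = 2.39e-08, limma). The other, Itga2b, was low and was not called (log2 fold change -0.53, adjusted p = 0.498, limma). The summed level of the pair, 595.1 to 872.3 in NG and 290.5 to 462.6 in HG, was mostly Pf4. Means in NG and HG were 731 and 342 for Pf4 and 26.1 and 19.8 for Itga2b. Ppbp, Gp9, Gp1ba and Gp1bb were not in the table. Of the osteoclast markers, 4 of 6 were listed and summed to 4918 to 5156 in NG and 5097 to 5177 in HG, with Ctsk, a cathepsin of osteoclasts, called at 0.93 (adjusted p = 0.0143). The part of these cells in the Itgb3 result was not tested.

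Macrophage markers also moved in high glucose, beside the rises of Itgal and Itgav. Of 10 markers, 4 rose and 3 fell, against 13.3% of all genes called (limma). On the log2 scale, Csf1r, the M-CSF receptor, changed by 0.35 (adjusted p = 5.63e-10), Lyz2, lysozyme, 0.42 (adjusted p = 7.08e-10) and Mrc1, the mannose receptor, -0.47 (adjusted p = 3.84e-09). The 10 markers summed to 667903 to 747128 in NG and 852054 to 921101 in HG, and their part in the integrin results was not tested.

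Itgb2, shared by LFA-1 and Mac-1, had normalized counts of 28266, 27123, 29987 and 29296 in NG and 30606, 30469, 30877 and 30362 in HG. The HG libraries lay within a narrow band just above the highest NG library. The difference missed the threshold (log2 fold change 0.09 ± 0.03 (SE), adjusted p = 0.0545, limma) and passed it without NG replicate 5 (adjusted p = 0.0337) or NG replicate 6 (adjusted p = 0.0468). With all 8 libraries it also passed when genes needed a mean of at least 50 (adjusted p = 0.0485, limma) and by DESeq2 on the recovered reads (adjusted p = 0.0445). Itgam stood at 7936 ± 543 in NG and 7529 ± 332 in HG (SD, n = 4 each), with a 95% interval of the log2 fold change of -0.16 to 0.01. It passed the threshold only without NG replicate 1, the lowest NG library (log2 fold change -0.12, adjusted p = 0.0302).

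The 95% intervals of the remaining chains bounded how far high glucose moved them. On the log2 scale they were -0.06 to 0.07 for Itgb1, -0.12 to 0.02 for Itgb5, -0.10 to 0.06 for Itga4 and -0.05 to 0.09 for Itga6. After quantile normalization Itgb5 was called lower (log2 fold change -0.12, adjusted p = 0.00678, limma), which made 4 called members. Itgax, at 123 to 157 normalized counts in NG and 102 to 129 in HG, had a wide interval of -0.66 to 0.09, so that a difference within it was not detectable at this depth. The values by library show the called genes with separate groups and Itgb1 and Itga4 with overlapping ones.

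**Figure D2:**
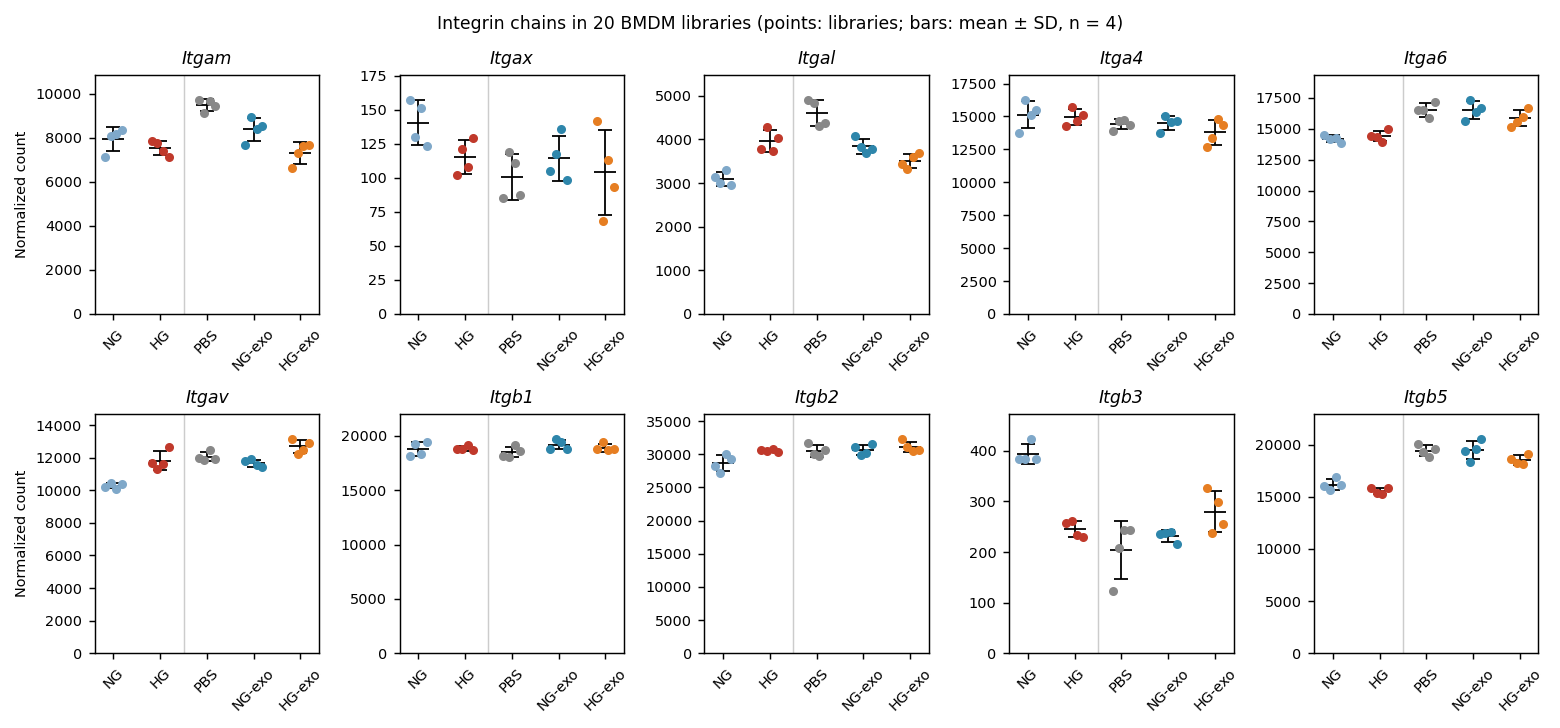
Normalized counts (y axis, from 0) of the 10 integrin chains in the 4 libraries of each group, with bars at the mean and SD. Itgal and Itgav are higher and Itgb3 lower in every HG library than in any NG library, and Itgam and Itgal lie lower in both exosome groups than in every PBS library.

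With exosomes from either source the alpha chains of Mac-1 and LFA-1 were lower than with PBS, and the shared beta chain Itgb2 was not called. Against PBS, 2 of the 10 members were called with BMDM-NG-exo, where 3% of 14413 genes were called, and 2 with BMDM-HG-exo, where 4.84% were, with the threshold set at an adjusted p of 0.05 and a log2 fold change of 0.15 or more in size (limma). Lower were 2.11% and 3.08% of genes, and higher 0.888% and 1.76%. The median log2 fold change of the 10 members was 0.00383 and -0.02, beside 0.00454 and 0.00336 over all genes. The called members were Itgam and Itgal in both, and both fell. They were also the members whose libraries did not overlap those of PBS, which held for 8.27% of genes with BMDM-NG-exo and 10% with BMDM-HG-exo. These comparisons share the PBS libraries and so are not independent of each other.

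Itgam had normalized counts of 9703, 9099.8, 9689 and 9428 with PBS, 7668, 8931, 8382 and 8533 with BMDM-NG-exo and 6611, 7301, 7628 and 7678 with BMDM-HG-exo. The PBS libraries were above all others, and the exosome groups met only where BMDM-NG-exo replicate 1, at 7668, fell between the 2 highest BMDM-HG-exo libraries, at 7628 and 7678. The means were 9480.1 ± 283, 8379 ± 527 and 7304 ± 492 (SD, n = 4 each).

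Relative to PBS, Itgam fell by 11.7% with BMDM-NG-exo (log2 fold change -0.18 ± 0.04 (SE), adjusted p = 0.0147) and fell by 23.1% with BMDM-HG-exo (log2 fold change -0.38 ± 0.04 (SE), adjusted p = 2.72e-07), both by limma. The first missed the threshold without PBS replicate 1 (log2 fold change -0.17, adjusted p = 0.0608), without BMDM-NG-exo replicate 1 (-0.14, adjusted p = 0.0986) and by limma without a trend (-0.18, adjusted p = 0.261). The second held whichever of the 8 libraries was left out. Within dates, Itgam was lower with each kind of exosome than with PBS on 4 of 4 dates, with log2 differences of -0.34 to -0.03 for BMDM-NG-exo and -0.55 to -0.30 for BMDM-HG-exo.

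Whether exosomes of high-glucose cells act differently from those of normal-glucose cells is the question of the direct comparison, in which 0 of 10 members and 0.0139% of 14413 genes were called, 2 in all, with 942 genes at an unadjusted p under 0.05 (limma). By edgeR and DESeq2 on the recovered reads, 1 and 25 genes were called. For Itgam the change with BMDM-HG-exo was -12.8% (log2 fold change -0.20 ± 0.04 (SE), adjusted p = 0.118, limma) and its level was lower on 4 of 4 dates, with log2 differences of -0.29 to -0.14. With the date as a block it was called (adjusted p = 0.0235, limma), as it was by DESeq2 on the recovered reads (adjusted p = 0.0328) and without BMDM-NG-exo replicate 1 (log2 fold change -0.24, adjusted p = 0.0155). Against the 8 controls as 1 group, Itgam was the 1 called member, where 0.201% of 14413 genes were called, 0.0694% higher and 0.132% lower (log2 fold change -0.29 ± 0.05 (SE), adjusted p = 0.0125, limma). Its libraries overlapped those of the controls, as all members' did, whereas those of 1.17% of genes did not. The call was lost without BMDM-HG-exo replicate 1 (log2 fold change -0.24, adjusted p = 0.187) or replicate 2 (adjusted p = 0.0609), and by limma without a trend (adjusted p = 0.349). PBS and BMDM-NG-exo, joined in these controls, themselves differed for Itgam (log2 fold change -0.18, adjusted p = 0.0147, limma). The call therefore mixes the difference from PBS with the difference from BMDM-NG-exo.

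Itgal had normalized counts of 4899, 4832, 4313 and 4366 with PBS, 4087, 3822, 3685 and 3786 with BMDM-NG-exo and 3436, 3327, 3606 and 3687 with BMDM-HG-exo. Again every PBS library stood above every exosome library, while the exosome groups touched at 3685 and 3687. The means were 4602 ± 306, 3845 ± 172 and 3514 ± 163 (SD, n = 4 each).

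Relative to PBS, Itgal fell by 16.4% with BMDM-NG-exo (log2 fold change -0.26 ± 0.05 (SE), adjusted p = 0.000775) and fell by 23.6% with BMDM-HG-exo (log2 fold change -0.39 ± 0.05 (SE), adjusted p = 9.09e-07), both by limma. Leaving out any 1 library kept both calls, and limma without a trend lost the first (adjusted p = 0.092). Between the exosome groups the difference missed the threshold (log2 fold change -0.13 ± 0.05 (SE), adjusted p = 0.621, limma), with the BMDM-HG-exo library lower on 4 of 4 dates (log2 differences of -0.25 to -0.03). Against the 8 controls it also missed (log2 fold change -0.26 ± 0.06 (SE), adjusted p = 0.064, limma), and it passed without BMDM-NG-exo replicate 1, 2 or 3 (adjusted p = 0.0479, 0.0429 and 0.0106) or with the controls kept as separate groups (adjusted p = 0.000206). PBS and BMDM-NG-exo, joined in these controls, themselves differed for Itgal, as given above.

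Other macrophage transcripts fell beside these alpha chains. Of 10 macrophage markers, 6 were called lower against PBS with BMDM-NG-exo and 6 with BMDM-HG-exo, where 3% and 4.84% of all genes were called, among them Fcgr1, the high-affinity IgG receptor, by 0.41 and 0.60 on the log2 scale (limma, adjusted p = 5.1e-07 and 1.48e-10). The summed level of the 10 markers was 839143 to 890956 with PBS, 752009 to 816010 with BMDM-NG-exo and 772607 to 798499 with BMDM-HG-exo. Neutrophils also carry Mac-1, and their 5 listed markers summed to 207.7 to 298.0 with PBS, 164.8 to 311.5 with BMDM-NG-exo and 251.8 to 305.9 with BMDM-HG-exo, with Ly6g, Elane, Cxcr2, Camp and Retnlg not in the table. In such bulk samples, fewer cells of a type and less RNA per cell cannot be told apart, and the part of the marker change in the integrin result was not tested.

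**Figure D3:**
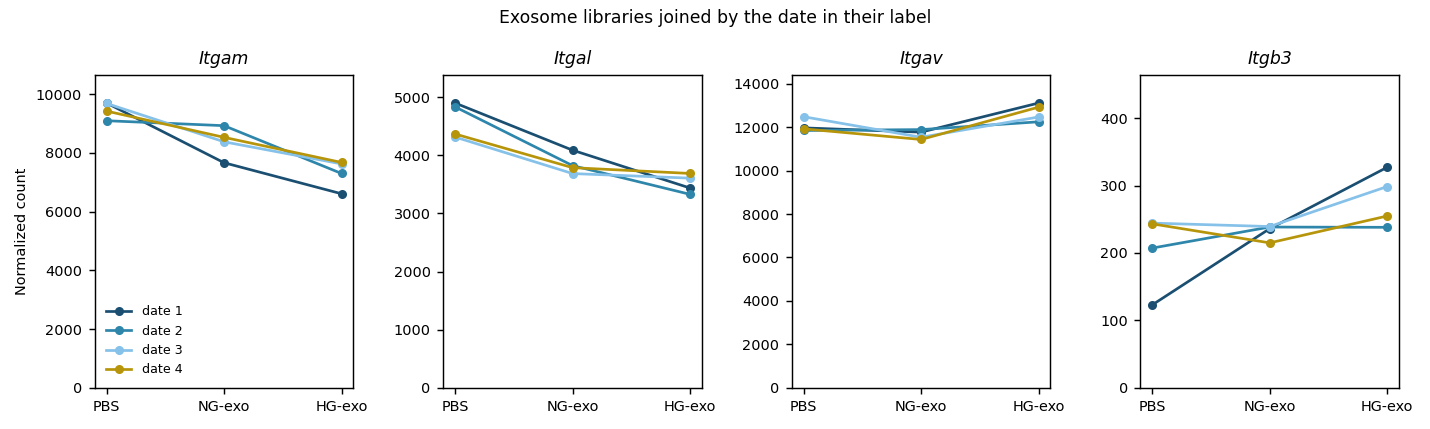
Normalized counts (y axis, from 0) of Itgam, Itgal, Itgav and Itgb3 in the 3 exosome experiment groups, 1 line for each of the 4 dates in the labels. Itgam and Itgal step down from PBS to BMDM-NG-exo to BMDM-HG-exo on 4 of 4 dates, and Itgav is higher with BMDM-HG-exo than with BMDM-NG-exo on 4 of 4. The share of all genes with a single direction on 4 of 4 dates was not computed.

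Itgav had normalized counts of 11970.3, 11849.5, 12484 and 11926 with PBS, 11774, 11891, 11538 and 11435 with BMDM-NG-exo and 13116, 12249, 12472 and 12926 with BMDM-HG-exo. It was the 1 member whose libraries did not overlap between the exosome groups, against 3.86% of genes. It was higher with BMDM-HG-exo than with BMDM-NG-exo on 4 of 4 dates, by 0.04 to 0.18 on the log2 scale. The difference missed the threshold (log2 fold change 0.12 ± 0.03 (SE), adjusted p = 0.327, limma), and its 95% interval was 0.05 to 0.19. By DESeq2 on the recovered reads the adjusted p was 0.0432, with a fold below the limit of 0.15.

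Itgb3 had normalized counts of 123, 207, 244 and 243 with PBS, 236, 238, 239 and 215 with BMDM-NG-exo and 327, 238, 298 and 255 with BMDM-HG-exo. PBS replicate 1, with 97 reads, was the lowest of all 20 libraries, and the groups overlapped. BMDM-HG-exo was above PBS on 4 of 4 dates, by 0.07 to 1.41, and the difference missed the threshold (log2 fold change 0.49 ± 0.17 (SE), adjusted p = 0.0928, limma). It passed without PBS replicate 3 (log2 fold change 0.59, adjusted p = 0.0398) and shrank without PBS replicate 1 to 0.26 (adjusted p = 0.431).

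The beta chains and the very late antigen alpha chains passed in none of the exosome comparisons. For Itgb2 the means were 30506 ± 882 with PBS, 30691 ± 720.0 with BMDM-NG-exo and 31128 ± 793 with BMDM-HG-exo (SD, n = 4 each), and the 95% interval of the log2 fold change of BMDM-HG-exo to PBS was -0.03 to 0.09. The same interval was -0.03 to 0.10 for Itgb1, -0.14 to 0.00 for Itgb5, -0.15 to 0.01 for Itga4 and -0.13 to 0.01 for Itga6. Itgb5 was lower with BMDM-HG-exo than with PBS and than with BMDM-NG-exo on 4 of 4 dates, with log2 differences down to -0.11. Between the exosome groups, Itga6 and Itgb1 were also lower with BMDM-HG-exo on 4 of 4 dates. Their log2 differences were -0.15 to -0.003 and -0.06 to -0.002. Against PBS, Itgb1 was higher with BMDM-NG-exo (0.01 to 0.12) and Itgb2 with BMDM-HG-exo (0.001 to 0.05) on 4 of 4 dates. A single direction on 4 of 4 dates was thus also seen in members that passed in no comparison. Its share over all genes was not computed. Itgax was measured too loosely to be bounded, with an interval of -0.44 to 0.48 and values from 68.0 to 141.9 among the BMDM-HG-exo libraries alone.

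**Figure D4:**
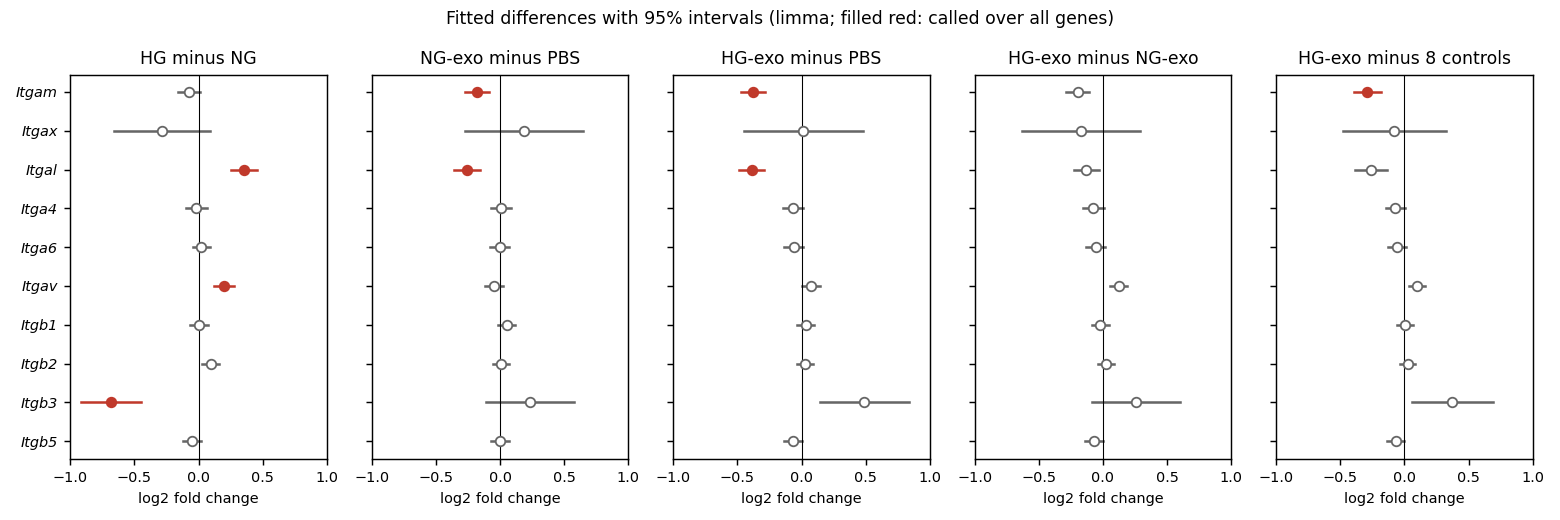
Log2 fold changes (x axis) with 95% intervals of the 10 integrin chains in 5 comparisons, with called members as filled points. Itgal and Itgav lie to the right and Itgb3 to the left for HG against NG, and Itgam and Itgal lie to the left in both comparisons with PBS.

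The fitted effects of high glucose and of BMDM-HG-exo against controls differed for 3 members, of which only Itgam was called on the exosome side. The difference between the effects, HG minus NG against BMDM-HG-exo minus controls, was tested in 1 fit over the 20 libraries and was called for 3 of 10 members, against 9.01% of 14449 genes, 5.94% with the higher and 3.07% with the lower value for high glucose (limma). Itgal rose in high glucose by 0.35 and had a log2 fold change of -0.26 against the controls of the exosome experiment, a difference of 0.61 ± 0.07 (SE, adjusted p = 5.91e-09). Itgb3 had -0.68 and 0.37, the second not called (adjusted p = 0.376), a difference of -1.05 ± 0.20 (SE, adjusted p = 0.000222). Itgam had -0.07 and -0.29, a difference of 0.21 ± 0.06 (SE, adjusted p = 0.0212), which was lost with the label number or date as a block (adjusted p = 0.0537) and without BMDM-HG-exo replicate 1, NG replicate 1, HG replicate 1 or HG replicate 2 (adjusted p = 0.0799, 0.0782, 0.0594 and 0.0559). Itgav was positive in both, at 0.20 and 0.10, and its difference of 0.10 missed the threshold (adjusted p = 0.195).

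The reference groups of the experiments, NG with mannitol and PBS, were not alike, although no test joins them, because experiment and treatment differ at once. Itgal was 3097 ± 161 in NG and 4602 ± 306 with PBS (SD, n = 4 each), and its HG libraries, at 3731 to 4279, lay between these groups. Itgb3 was 393 ± 19.3 in NG and 204 ± 57 with PBS, and all HG and exosome libraries lay below the NG range. Itgb5 was 16171 ± 509 in NG and 19439 ± 536 with PBS. Experiment and treatment cannot be told apart in these values.

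Ratios of chains that pair show how unequal their transcripts were. Per kilobase, Itgal to Itgb2 was 0.0502 ± 0.00233 in NG, 0.0601 ± 0.0042 in HG, 0.0701 ± 0.00402 with PBS, 0.0582 ± 0.00247 with BMDM-NG-exo and 0.0525 ± 0.00337 with BMDM-HG-exo (SD, n = 4 each). In every group the transcripts of Itgal were few beside those of its beta chain. Itgb5 to Itgav was 4.76 ± 0.218 in NG, 4 ± 0.145 in HG, 4.88 ± 0.224 with PBS, 5.05 ± 0.311 with BMDM-NG-exo and 4.42 ± 0.1 with BMDM-HG-exo, so the lowest mean was that of HG. Itgb3 to Itgb5, the alternative partners of Itgav, was 0.0146 ± 0.000359 in NG, 0.00948 ± 0.00067 in HG, 0.00636 ± 0.00187 with PBS, 0.0072 ± 0.000632 with BMDM-NG-exo and 0.00909 ± 0.00137 with BMDM-HG-exo. These ratios are of transcripts and were not tested.

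Of the 8 other chains listed, 1 was called in high glucose, where 13.3% of all genes were. Against PBS, 1 was called with BMDM-NG-exo and 2 with BMDM-HG-exo, where 3% and 4.84% of all genes were. Itga9, a receptor chain for tenascin and osteopontin, fell in HG by 0.65 on the log2 scale (adjusted p = 5.42e-07, limma) and with BMDM-HG-exo against PBS by 0.63 (adjusted p = 0.000849). Its normalized counts were 771, 751, 818 and 804 in NG and 522, 494, 459 and 535 in HG, with no overlap. Itgb7 fell against PBS by 0.25 with BMDM-NG-exo (adjusted p = 0.0181) and by 0.22 with BMDM-HG-exo (adjusted p = 0.0304). Itga5 had 0.14 (adjusted p = 0.0516) in HG, just short of the threshold.

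Genes that switch integrins on or tie them to actin moved in both directions in high glucose. Of 28 listed genes, 5 rose and 2 fell, against 13.3% of all genes called, with a median log2 fold change of 0.04 (limma). Fyb, an adaptor that couples immune receptors to integrin activation, had 0.20 (adjusted p = 6.27e-05), Cib1, a calcium-binding partner of integrin tails, 0.44 (adjusted p = 0.00146) and Rapgef1, an exchange factor for Rap1, 0.22 (adjusted p = 0.00165). Parvg, a parvin that links integrins to actin, fell by 0.25 and Cyth1, a cytohesin that binds the beta-2 tail, by 0.16 (adjusted p = 0.016 and 0.0237). Against PBS, Sipa1, which switches Rap1 off, was the 1 of 28 called with BMDM-NG-exo, and lower, where 3% of all genes were called. With BMDM-HG-exo 2 of 28 were called, both lower, where 4.84% of all genes were. These were Zyx, a focal adhesion protein, at -0.22 (adjusted p = 0.0021) and Fermt3, the kindlin of blood cells, at -0.17 (adjusted p = 0.00324). Fyb (-0.14, adjusted p = 0.00187), Flna (-0.13, adjusted p = 0.00368) and Rap1b (-0.13, adjusted p = 0.0274) were also lower with BMDM-HG-exo but below the fold limit of 0.15. With BMDM-NG-exo this held for Fyb (adjusted p = 0.00925) and Flna (adjusted p = 0.00619). None of the 28 was called against the 8 controls or between the exosome groups.

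Of 23 listed signalling genes downstream of integrins, 10 rose in high glucose, none fell and 13 did not pass, against 13.3% of all genes called (limma). Their median log2 fold change was 0.10, beside -0.00306 over all genes. The calls with the smallest p were Rac2, a GTPase of blood cells, at 0.35 (adjusted p = 8.27e-08), and Plcg2, a phospholipase, at 0.27 (adjusted p = 5.49e-06). With BMDM-HG-exo the calls against PBS were in the other direction, 5 of 23 lower and none higher where 4.84% of all genes were called, and none was called against the 8 controls. Exosome calls, here and in the other lists, also needed a log2 fold change of 0.15 or more in size. Calls in high glucose did not, so the 2 kinds of count are not alike. Fgr, a Src-family kinase, was at -0.46 (adjusted p = 0.00332) and the adaptor Lcp2 at -0.22 (adjusted p = 0.00337) with BMDM-HG-exo against PBS. The difference between the high glucose and exosome effects was called for 8 of the 23, against 9.01% of all genes, each with the higher value for high glucose.

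Of 29 ligand genes, 18 were listed, and 2 rose and 2 fell in high glucose, where 13.3% of all genes were called, with a median of -0.06 (limma). C3, whose cleaved fragment is bound by Mac-1, had 1.04 (adjusted p = 2.51e-18), and Spp1 (osteopontin), bound by alpha-v integrins and VLA-4, had 0.43 (adjusted p = 5.82e-10). Thbs1, a matrix glycoprotein bound by alpha-v integrins, fell by 0.57 (adjusted p = 1.05e-05) and Mfge8, which bridges dying cells to alpha-v integrins, by 0.27 (adjusted p = 0.00523).

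Against PBS, 2 of 18 ligands fell with BMDM-NG-exo, C3 and Icam1, where 3% of all genes were called, and 3 rose and 3 fell with BMDM-HG-exo, where 4.84% were. C3 had -0.54 (adjusted p = 1.55e-05) and -0.70 (adjusted p = 8.12e-08), against a positive value in high glucose. Icam1, the ligand of LFA-1 and Mac-1, had -0.28 (adjusted p = 0.000499) and -0.30 (adjusted p = 0.000109). Thbs1 was lower with BMDM-HG-exo than with the 8 controls, by 0.53 (adjusted p = 0.000671), and Spp1 was higher, by 0.21 (adjusted p = 0.0382). Thbs1 was also the 1 ligand called between the exosome groups, at -0.51 (adjusted p = 0.000382).

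Membrane partners of integrins were listed in full. Their median change in high glucose was -0.05 on the log2 scale, and 4 of 15 were called, against 13.3% of all genes. Of these 2 rose, the tetraspanins Cd9, at 0.26 (adjusted p = 1.86e-05), and Cd81, at 0.18 (adjusted p = 0.00408), and 2 fell, Cd44, the hyaluronan receptor, at -0.21 (adjusted p = 9.25e-05), and Slc3a2, an amino acid transporter subunit that binds beta tails, at -0.14 (adjusted p = 0.0314) (limma). Cd9 was the 1 partner called against PBS with BMDM-HG-exo, where 4.84% of all genes were called, at 0.16 (adjusted p = 0.0297), and none was called with BMDM-NG-exo.

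Correlations over the 20 libraries, which share the group differences above, describe which genes varied alongside the called members. The largest Pearson r of log2 values with Itgam was 0.864 for Ucp2, followed by Atrnl1 (0.843) and Tifab (0.826). For Itgal they were Btg1 (0.929), Susd6 (0.905) and Plekhg3 (0.903). For Itgav they were Abr (0.912), Galnt7 (0.888) and Nrp2 (0.888), and for Itgb3 Gm44974 (0.88), Cnrip1 (0.867) and Cdc27 (0.858). Among the members, the highest r was 0.88 between Itga6 and Itgb5, both lower in the glucose experiment than in the exosome experiment, and the lowest was -0.82 between Itgal and Itgb3.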

How the data were processed

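The RNA of BMDM was sequenced as stranded total RNA libraries. Per the labels, the authors trimmed reads with cutadapt, aligned them to GRCm38 with STAR and counted them with featureCounts. The deposited signal values are counts divided by a size factor per library. Whole reads were recovered from 100% of the values at a tolerance of 0.01 reads, and these recovered counts served the alternatives by edgeR 4.0.16 and DESeq2 1.42.0. Depth was 34016445 to 56310712 reads per library.

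Groups followed the labels. Values were tested as log2(normalized count + 1), so fold changes of low genes are understated, with limma 3.58.1 (R 4.3.3, trend, two-sided) for every gene whose mean reached 10, and p-values were adjusted by Benjamini-Hochberg across the genes tested. Calls required an adjusted p under 0.05 and, in the exosome comparisons, a log2 fold change of 0.15 or more in size. BMDM-HG-exo was compared with the 8 PBS and BMDM-NG-exo libraries as 1 group, pairwise within 1 fit of 3 groups, and with the glucose effect in 1 fit of 5 groups. The script was tested on simulated data. Exon lengths and positions are from GENCODE M21, which matched 14421 of 14456 genes, and promoter sequences from RefSeq (GRCm38.p6).

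All members were described. Of each list of other integrin chains, adaptors, signalling genes, ligands and partners, at most 3 called genes a direction were named, those with the smallest p, and for likeness the 3 genes with the largest r per called member. Values of some genes in these lists are not reported here. Other listed chains, and genes beside a stated count, were also named. The members and lists were chosen with earlier results of these data known. The exosome libraries carry dates that the groups share, and these were taken as a possible pairing. The labels do not say what was done on a date. The tests given are without this pairing, and a fit with the date as a block was an alternative. Libraries of the same date correlated in their deviations by -0.0187 to 0.0546 (12 pairs, mean 0.0118), against a mean of -0.00392 over 36 other pairs. No replicate pair was a copy, with a chi-square per degree of freedom of 5.19 to 41.9 over 30 pairs. Alternatives changed the pseudocount, filter, scaling, test, block or fold limit, or left out a library.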

Additional observations from a re-analysis of the deposited data

Results flagged for a closer look

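Among the 50 combinations of 10 genes and 5 groups, 3 held a library far from its group, where chance alone gives about 1 in 20. For Itgb1, BMDM-HG-exo replicate 2 stood at 19454 normalized counts, against 18671 to 18782 in the other libraries of the group. For Itgb3, NG replicate 5 stood at 422 against 383 to 384, and BMDM-NG-exo replicate 4 at 215 against 236 to 239.

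The effect of high glucose differed from that of BMDM-HG-exo against its controls for 3 members, by a test of the difference over 20 libraries (limma, adjusted for all genes). The log2 difference was 0.61 for Itgal, -1.05 for Itgb3 and 0.21 for Itgam. Itgam missed the threshold under quantile normalization (adjusted p = 0.129), without the trend (0.14) and with the block (0.0537).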

How the results depend on the processing

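Itgal and Itgb3 in high glucose, and Itgam and Itgal with BMDM-HG-exo against PBS, were called under every alternative run and without each library. Without the trend, limma called 654 genes in HG against NG, 1 gene and 0 members for BMDM-HG-exo against controls, 1 gene against BMDM-NG-exo, 295 genes against PBS, and 95 genes and 0 members for BMDM-NG-exo against PBS, and Itgav in high glucose was lost (adjusted p = 0.0617). For BMDM-HG-exo against controls, other counts of genes were 52 with a pseudocount of 10, 19 with quantile normalization, 136 (2 members) by DESeq2 and 285 (2 members) with the controls as separate groups. Against BMDM-NG-exo they were 7 with a pseudocount of 10, 5 with a mean of at least 50, 1 with TMM factors, 1 by edgeR and 25 (1 member) by DESeq2. The causes were not tested.

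With the replicate block by date, 22 genes and 1 member were called between the exosome groups, and the block by label number or date gave 788 genes in HG against NG and 702 for the difference of effects. The glucose libraries share only 2 label numbers, so their block is a number and not a known pairing (mean r of same-numbered libraries 0.00844, against -0.00121). Beside the Itgam calls given above, the block changed no other member's call.

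Leaving out 1 library gave 1 to 204 genes and 0 to 2 members for BMDM-HG-exo against controls, the most without BMDM-NG-exo replicate 3 and the fewest without BMDM-HG-exo replicate 1. It gave 1 to 7 genes and 0 to 1 members against BMDM-NG-exo, and 1 to 2 members for BMDM-NG-exo against PBS.

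Values near 0 that were called in no fit changed sign. With quantile normalization, the log2 fold changes were -0.039 for Itga6 and -0.047 for Itgb1 in HG, 0.0034 for Itga6 with BMDM-NG-exo and -0.022 for Itgax with BMDM-HG-exo against PBS, and the difference of effects was -0.020 for Itga4 and -0.061 for Itgb5. In HG, Itgb1 was at -1.8e-05 by DESeq2 and -0.0049 with the block, and Itga4 at 0.0075 with the block. Itgb5 with BMDM-NG-exo against PBS was at -0.00095 with TMM factors and -0.00032 by edgeR. Without 1 library, the ranges were -0.064 to 0.016 for Itga4 and -0.013 to 0.020 for Itgb1 in HG, -0.0099 to 0.033 for Itga4, -0.027 to 0.023 for Itga6, -0.0040 to 0.027 for Itgb2 and -0.025 to 0.027 for Itgb5 with BMDM-NG-exo against PBS, -0.149 to 0.201 for Itgax with BMDM-HG-exo against PBS, -0.243 to 0.107 for Itgax and -0.0079 to 0.015 for Itgb1 against controls, -0.337 to 0.013 for Itgax against BMDM-NG-exo, and, for the difference of effects, -0.019 to 0.014 for Itgb1 and -0.00069 to 0.036 for Itgb5. Itgax and Itgb3, with 67 to 169 and 97 to 457 reads, were the members least well measured.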
